A study of Oryctolagus cuniculus with 134 samples.

Results

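The mitral valves of rabbits fed a lard-rich diet were compared with those of rabbits fed a cholesterol-rich diet. The libraries were chosen by their tissue and treatment labels, mitral valve with Lard or with Cholesterol (CHT below), which gave 13 of the 134 RNA libraries of the series: 7 from Lard and 6 from CHT. All animals were male New Zealand White rabbits, 12 weeks old at the start and followed for 16 weeks. The Lard diet held 5% lard and the CHT diet 0.3% cholesterol, and vitamin D2, dosed by body weight, was added in both groups over 15 days. The mitral valves of the other 2 groups entered the same statistical model: 6 libraries from rabbits on chow without vitamin D2 (Ctrl) and 7 from rabbits on the CHT diet with vitamin D2 and 24 Gy of cardiac irradiation in 3 fractions of 8 Gy after 8 weeks (IR/CHT). Each library came from a different rabbit, so the replicates of a group are animals. The comparison asks how the valve transcriptome differed between a diet rich in saturated fat and a diet rich in cholesterol, with vitamin D2 common to both.

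Cells sense sterols through the membrane of the endoplasmic reticulum. When sterol is scarce, the transcription factor SREBP2 is processed and turns on the enzymes of cholesterol synthesis, and when sterol is abundant, INSIG proteins hold it back while oxysterols activate the liver X receptors (LXR), which turn on genes of cholesterol efflux. In arteries and valves exposed to high plasma cholesterol, macrophages that take up modified lipoproteins become lipid-laden foam cells with a large lysosomal compartment. The mitral valve itself is made of interstitial cells in a collagen-rich matrix under a layer of endothelium, and it joins the muscle of the left heart.

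The Lard valves had 16415435 to 20276939 read pairs on genes and the CHT valves 13564979 to 42151854, where CHT L266 was the deepest library. All 6 CHT libraries were in the table of plate 1, while 3 Lard libraries were in that of plate 1 and 4 in that of plate 2, so counts of calls within plate 1 are given beside those of the main lists. The tissue label was read against 13 measured markers of valve interstitial cells and fibroblasts, collagens and decorin among them, which other connective tissues also express. They summed to 28470 to 32710 CPM (counts scaled to the size of each library) on Lard and 27170 to 32640 CPM on CHT. Heart muscle genes were also present and very uneven, with sums of 77.6 to 2407 CPM on Lard and 284 to 5324 CPM on CHT. The summed endothelial markers of 3 Lard libraries, L158, L191 and L544, were at 173.4 to 314 CPM, under all CHT libraries, which held 574.4 to 1083 CPM. Lard L233 and L249, at 1485 and 1400 CPM, were above all CHT libraries, and the Ctrl valves ran from 119.8 to 1621 CPM. CHT L245 lay nearest to the Lard valves in 61 of the 69 genes named here that fell on Lard.

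Of 15322 genes tested, 927 (6.05%) were differentially expressed genes (DEGs), for which both an adjusted p-value under 0.05 and a change of more than 1.5-fold were required. The difference was one-sided, with 811 genes lower on Lard (5.29%) and 116 higher (0.757%), while the median log2 fold change of all tested genes was 0.02. The higher count depended on single libraries and on plate: it was 58 with plate in the model, 61 without CHT L266, 74 without CHT L187, 76 without Lard L191 and 1.18% of tested genes without CHT L245. The lower genes also moved further. Their median log2 fold change was -1.76, and 146 of them were over 8-fold lower on Lard, against a median of 0.83 and 0 genes over 8-fold higher among the 116. The ranges of the 7 Lard and the 6 CHT libraries did not overlap in 425 DEGs, 383 lower and 42 higher, and in 3.61% of all tested genes. Within plate 1, with 3 Lard libraries, 1.76% of 15648 tested genes were called, 0.115% higher and 1.64% lower, 96.4% of these calls were among the 927, and all 927 kept their direction. Without Lard L158, L191 and L544, 540 genes were called, 39 higher and 501 lower.

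Set beside chow, the Lard valves had 0 calls against Ctrl, while the CHT valves stood apart from it. Lard against Ctrl gave 0 DEGs in edgeR (0%), with 253 genes at an unadjusted p-value under 0.05, and 0 DEGs in DESeq2. The 253 are fewer than that threshold passes by chance, so 0 DEGs does not show that the groups are alike. CHT against Ctrl gave 861 (5.62%). The 811 genes lower on Lard than on CHT had a median log2 fold change of -0.03 for Lard against Ctrl and of 1.70 for CHT against Ctrl, where 676 of them were called. For the 116 genes higher on Lard, these medians were 0.14 and -0.74, with 47 called in CHT against Ctrl. These comparisons share their samples, and Ctrl also lacked the vitamin D2, so the values are given side by side without a test between them.

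Among the process lists, cholesterol synthesis had the highest share of genes higher on Lard. Of 14 measured enzymes, 12 were higher and 0 lower, against 0.757% of all tested genes called higher, and the median log2 fold change was 0.94. For this and every list below, the shares over all tested genes are 0.757% called higher and 5.29% called lower. The summed level of the list was 433 to 549.3 CPM in the Lard valves and 188.5 to 220.2 CPM in the CHT valves, without overlap. Ctrl valves held 497 to 698 CPM.

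SQLE, squalene epoxidase, which makes the first oxygenated intermediate of the sterol branch, lay between 24.8 and 41.3 CPM in the Lard libraries with a median of 31.1, and between 4.72 and 10.1 CPM in the CHT libraries with a median of 7.21. Every Lard valve was above every CHT valve, and the median was 39.7 CPM in Ctrl and 5.68 CPM in IR/CHT. The log2 fold change of SQLE was 2.10 ± 0.17 (SE, adjusted p = 5.94e-09). CYP51A1, the lanosterol demethylase, was at 41.0 to 62.6 CPM on Lard (median 54.8) and at 12.6 to 19.8 CPM on CHT (median 17.6), a log2 fold change of 1.63 ± 0.14 (adjusted p = 2.72e-08). MSMO1, which removes methyl groups from sterol intermediates, followed the same pattern, with 15.6 to 25.5 CPM on Lard (median 18.6) and 3.77 to 8.23 CPM on CHT (median 5.42; log2 fold change 1.76 ± 0.20).

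Earlier steps of the pathway rose as well. HMGCS1, HMG-CoA synthase, lay between 36.7 and 44.7 CPM on Lard (median 39.2) and between 9.72 and 18.6 CPM on CHT (median 16.4). The groups did not overlap, and the log2 fold change was 1.42 ± 0.18 (adjusted p = 7.15e-06). FDFT1, squalene synthase, rose by 1.43 ± 0.23 on the log2 scale and ACAT2, a thiolase at the start of the pathway, by 0.84 ± 0.13. The ranges of 10 of the 14 enzymes were apart. Within plate 1 alone, 9 enzymes were still called, SQLE at a log2 fold change of 2.19 (adjusted p = 0.00015) and HMGCS1 at 1.45 (adjusted p = 0.00787), and without the 3 Lard libraries of low endothelial level 8 were.

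Genes of sterol sensing and uptake moved in both directions, 2 higher and 2 lower of 13 measured. INSIG1, which retains the SREBP complex in the endoplasmic reticulum and is itself a target of it, was at 21.6 to 32.0 CPM on Lard (median 25.97) and 5.89 to 14.3 CPM on CHT (median 8.45), with a log2 fold change of 1.44 ± 0.22 (adjusted p = 7.19e-05). Every Lard valve was above every CHT valve. The VLDL receptor gene VLDLR went the other way, 11.9 to 47.6 CPM on Lard (median 18.5) against 48.9 to 155.4 CPM on CHT (median 68.0), and fell by 1.89 ± 0.32 on the log2 scale. NPC2, which carries cholesterol out of the lysosome, had a log2 fold change of -0.93. Within plate 1, 2 genes of the list were called higher and 1 lower.

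**Figure D1:**
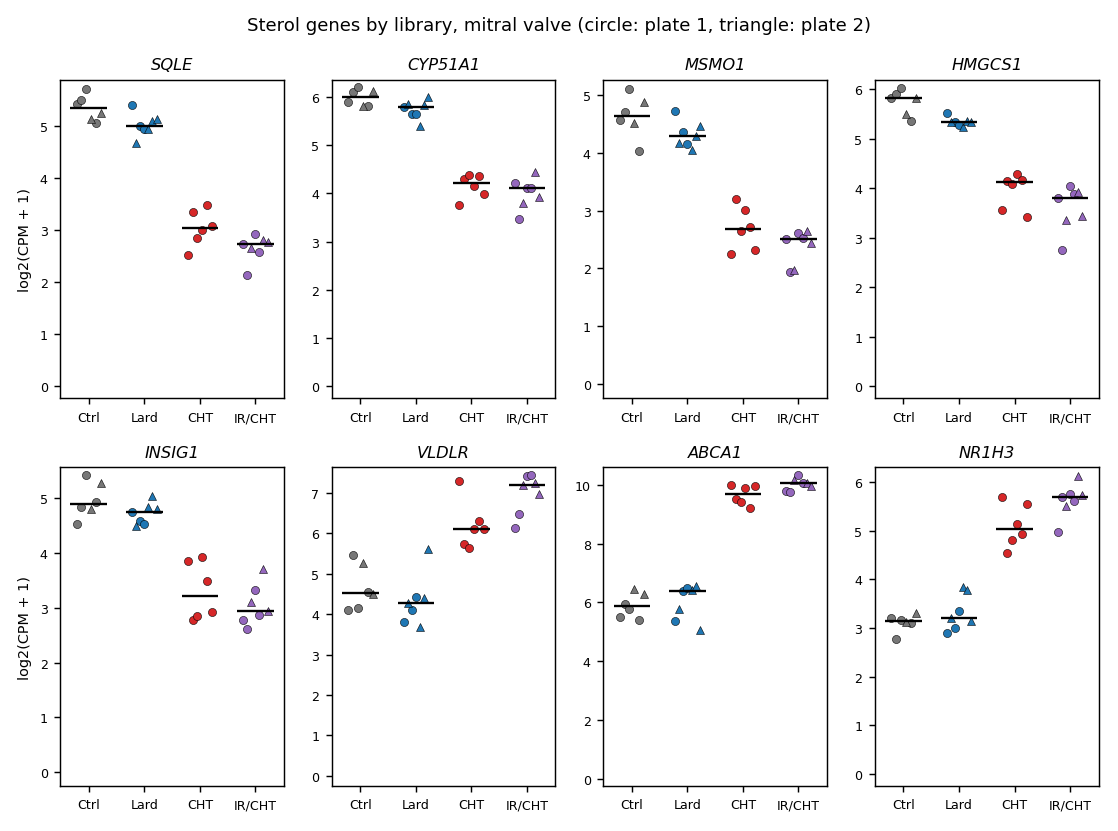
Level of 8 sterol genes in each mitral valve library, as log2(CPM + 1) on the y axis, by group on the x axis; bars are group medians, circles plate 1 and triangles plate 2. The 7 Lard libraries sit above the 6 CHT libraries for SQLE, CYP51A1, MSMO1, HMGCS1 and INSIG1, and below them for VLDLR, ABCA1 and NR1H3.

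The LXR list went in the opposite direction, with 6 of 9 measured genes lower on Lard and 0 higher. ABCA1, the transporter that passes cellular cholesterol to apolipoprotein A-I, was at 32.0 to 92.8 CPM on Lard (median 82.8) and at 595 to 1011 CPM on CHT (median 841). No library came close to the other group, and Ctrl had a median of 57.4 CPM and IR/CHT of 1081 CPM. The log2 fold change of -3.61 ± 0.24 had an adjusted p of 2.26e-10, and it was -3.56 within plate 1. NR1H3, which encodes LXR alpha itself, was at 6.39 to 13.3 CPM on Lard (median 8.21) and 22.4 to 51.0 CPM on CHT (median 31.8), a log2 fold change of -1.92 ± 0.20. PLTP, which transfers phospholipids between lipoproteins, changed by -1.55 ± 0.30 with 6 of 7 Lard valves below all CHT valves. APOC1 (-3.48) and LPCAT3 (-0.72) were called as well. Within plate 1 4 of the 6 were called, and 3 without the Lard libraries of low endothelial level.

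Storage and fatty acid genes gave calls in both directions. In the list of sterol storage and lipid droplets, 3 of 9 measured genes fell and 1 rose. PLIN2, the coat protein of lipid droplets, was at 21.9 to 34.3 CPM on Lard (median 28.3) and 43.1 to 95.8 CPM on CHT (median 69.2), with a log2 fold change of -1.29 ± 0.17. LIPA, the lysosomal acid lipase that frees cholesterol from its esters, fell by 2.36 ± 0.26 on the log2 scale, and SOAT1, which makes the esters, by 0.81 ± 0.19. SOAT1 was not called within plate 1 (adjusted p = 0.195) or without the 3 Lard libraries of low endothelial level (adjusted p = 0.0807). CIDEB, a droplet-associated protein, was the gene that rose (log2 fold change 1.44). Within plate 1, 2 of the list were called lower and 0 higher.

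Fatty acid synthesis had 2 higher genes of 10, ACSS2, which makes acetyl-CoA from acetate (log2 fold change 1.18 ± 0.22), and THRSP, a lipogenic regulator (2.80 ± 0.76). THRSP was low, with 0.93 to 7.17 CPM on Lard and 0.10 to 0.87 CPM on CHT, and was not called within plate 1 (adjusted p = 0.129) with plate in the model (adjusted p = 0.0945) or without the 3 Lard libraries of low endothelial level (adjusted p = 0.0818). The list had 1 call when CHT L170, CHT L187, CHT L266 or Lard L270 was left out alone. The 6 adipocyte markers tested had 0 calls, 1 with a negative log2 fold change and a median of 0.50. The 7 found by symbol, tested or not, summed to 20.7 to 90.9 CPM on Lard (median 56.5) and 6.11 to 101.9 CPM on CHT (median 24.6). None of them was at 0, and their part in the lipogenic genes was not tested. Of 26 genes of fatty acid uptake and oxidation, 3 fell (11.5%, beside 5.29% of all tested genes called lower): FABP5, a fatty acid binding protein (-1.62 ± 0.27), and the uncoupling proteins UCP2 (-1.77 ± 0.34) and UCP3 (-1.24 ± 0.35). Within plate 1, 1 of the 3 was called, and neither UCP2 (adjusted p = 0.059) nor UCP3 (adjusted p = 0.392) was. UCP3 was also not called without the 3 Lard libraries of low endothelial level (adjusted p = 0.0827) or without Lard L544 and CHT L157 (adjusted p = 0.0571). PDK4, which restrains glucose oxidation when fat is burnt, was at 100.7 to 223.3 CPM on Lard and 59.3 to 191.6 CPM on CHT, and its log2 fold change of 0.25 ± 0.27 did not pass the test (adjusted p = 0.703). The 18 respiratory chain subunits measured had 0 calls.

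**Figure D2:**
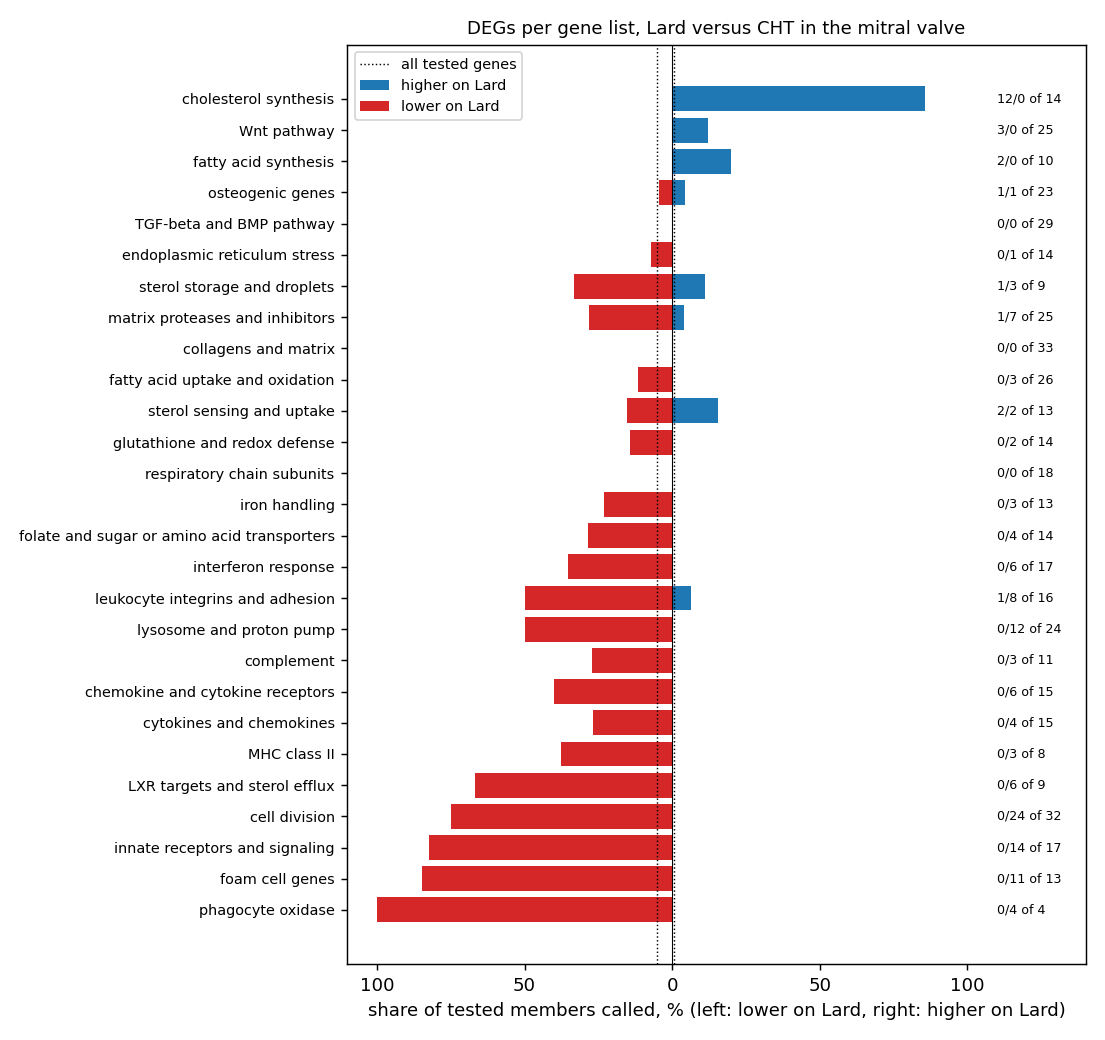
Share of the tested members of each gene list that were DEGs, in percent, to the right when higher on Lard and to the left when lower; the dotted lines mark the shares over all tested genes, and the figures at the right give higher and lower calls of the number tested. Cholesterol synthesis points right with 12 of 14, while phagocyte oxidase, foam cell genes, innate receptors and cell division reach furthest left.

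Foam cell genes were lower on Lard nearly throughout. Of 13 measured, 11 were lower on Lard and 0 higher, with a median log2 fold change of -1.81 against 0.02 over all genes, and the summed level was 856 to 1636 CPM on Lard and 2021 to 6759 CPM on CHT. The count was 11 within plate 1, with plate in the model, without the 3 Lard libraries of low endothelial level, and with any single library left out. The list was chosen with earlier results of these data known, and these settings share libraries. In bulk tissue, fewer cells of a type and less RNA of a gene per cell cannot be told apart.

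GPNMB, a transmembrane glycoprotein of lipid-loaded macrophages, was at 10.6 to 19.4 CPM in the Lard valves (median 13.2) and at 192.1 to 1560 CPM in the CHT valves (median 626). Ctrl valves had a median of 12.0 CPM and IR/CHT valves of 1960 CPM. The log2 fold change was -5.73 ± 0.41 (adjusted p = 4.73e-10). MMP12, macrophage elastase, was nearly undetected on Lard, with 24 read pairs over the 7 libraries and at most 0.54 CPM, and lay between 60.7 and 293.6 CPM on CHT (median 168.8). Its mean was 968 times higher on CHT, a ratio that rests on those 24 read pairs. ATP6V0D2, a subunit of the vacuolar proton pump found in macrophages and osteoclasts, showed the same contrast at a lower level, with 0 to 0.47 CPM on Lard and 2.94 to 54.5 CPM on CHT (log2 fold change -6.10 ± 0.68).

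SPP1, the secreted phosphoprotein osteopontin, was at 51.6 to 244.3 CPM on Lard (median 125) and 183.9 to 841 CPM on CHT (median 624). The ranges overlapped, since CHT L245 lay within the Lard range, and the log2 fold change was -2.18 ± 0.30 (adjusted p = 1.5e-05). The scavenger receptor gene MSR1 fell by 2.09 ± 0.33 on the log2 scale, and the scavenger receptor OLR1 and the lectin LGALS3 had log2 fold changes of -1.72 and -1.61. CHI3L1, a chitinase-like glycoprotein of activated macrophages and cartilage cells, did not pass the test. It was at 221 to 522 CPM on Lard and 148.5 to 396 CPM on CHT, a log2 fold change of 0.25 ± 0.22 (adjusted p = 0.622).

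Lysosomal genes were lower on Lard in 12 of 24 measured cases (50%, beside 5.29% of all tested genes) and higher in 0, and all 24 had a negative log2 fold change. CTSS, the cathepsin of antigen-presenting cells, was at 4.0 to 27.8 CPM on Lard (median 14.9) and 59.8 to 240.3 CPM on CHT (median 161.4), a change of -3.31 ± 0.42. CTSK, the collagen-cleaving cathepsin, was at 104 to 197.1 CPM on Lard (median 141) and 269.1 to 617 CPM on CHT (median 459), a change of -1.69 ± 0.20. Neither gene overlapped between the diets. The cathepsins CTSB, CTSZ, CTSC and CTSA, the glucuronidase GUSB and the pump subunits ATP6V1A, ATP6V1B2, ATP6V1C1 and ATP6V1H completed the set, at log2 fold changes between -1.88 and -0.63. Within plate 1 5 of the 12 were called.

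Genes of the myeloid cell surface and its signaling fell on Lard. Of 17 innate receptors and signaling genes, 14 were lower (82.4%, beside 5.29% of all tested genes) and 0 higher. CD14, the lipopolysaccharide co-receptor, was at 3.46 to 14.9 CPM on Lard (median 9.01) and 23.3 to 89.4 CPM on CHT (median 64.5; log2 fold change -2.93 ± 0.40). CLEC7A, the beta-glucan receptor dectin-1, changed by -3.42 ± 0.46. Toll-like receptors TLR1, TLR2, TLR4 and TLR8, the adaptors TYROBP and FCER1G and the kinases SYK, LYN, FGR and BTK were called as well, between -2.46 and -1.37. Within plate 1 7 of these 14 were called.

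Of 16 leukocyte integrin and adhesion genes, 8 fell and 1 rose. ITGAM, the alpha chain of Mac-1 on monocytes and neutrophils, was at 4.14 to 14.5 CPM on Lard (median 9.70) and 43.2 to 182.99 CPM on CHT (median 105), a log2 fold change of -3.67 ± 0.36 (adjusted p = 1.73e-07). ITGAL, the alpha chain of LFA-1, was at 1.26 to 2.19 CPM on Lard (median 1.79) and 24.6 to 164.3 CPM on CHT (median 58.7; -5.53 ± 0.44), and ITGAX, CD11c, changed by -3.67 ± 0.40. Their shared beta chain ITGB2 (-3.22), the alpha-4 chain ITGA4 (-1.71), the endothelial selectin SELE (-4.26), the hyaluronan receptor CD44 (-0.96) and ITGAD (-2.58) were also lower. ITGAD and ITGAX are close paralogs, whose reads the counting could have split. CD34, a sialomucin of endothelium and of stromal fibroblasts, was the member that rose, from 132.0 to 203.7 CPM on CHT to 207.6 to 386.9 CPM on Lard (0.67 ± 0.16). Within plate 1, 4 of the 8 lower genes were called. CD34 was not called there (adjusted p = 0.251), with plate in the model (adjusted p = 0.0728) or without the 3 Lard libraries of low endothelial level (adjusted p = 0.0799).

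The 4 measured genes of the phagocyte NADPH oxidase were all lower on Lard. CYBB, its catalytic subunit, was at 3.16 to 16.5 CPM on Lard (median 9.05) and 19.9 to 47.4 CPM on CHT (median 35.9), a log2 fold change of -1.91 ± 0.34. RAC2, the small GTPase that activates it, changed by -3.54 ± 0.56, and NCF4, a cytosolic subunit, by -1.64. Within plate 1, 2 of the 4 passed, and CYBB did not (adjusted p = 0.0968). Antigen presentation showed 3 lower genes of 8 in the MHC class II list. HLA-DRA, the alpha chain of the DR molecule, was at 15.4 to 81.4 CPM on Lard (median 37.2) and 90.1 to 233.8 CPM on CHT (median 190), a change of -2.07 ± 0.36. The invariant chain CD74 (-1.58 ± 0.32) and the peptide-loading subunit HLA-DMA (-2.24 ± 0.35) were the others. Within plate 1, 2 of the 3 were called, and CD74 was not (adjusted p = 0.0709).

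**Figure D3:**
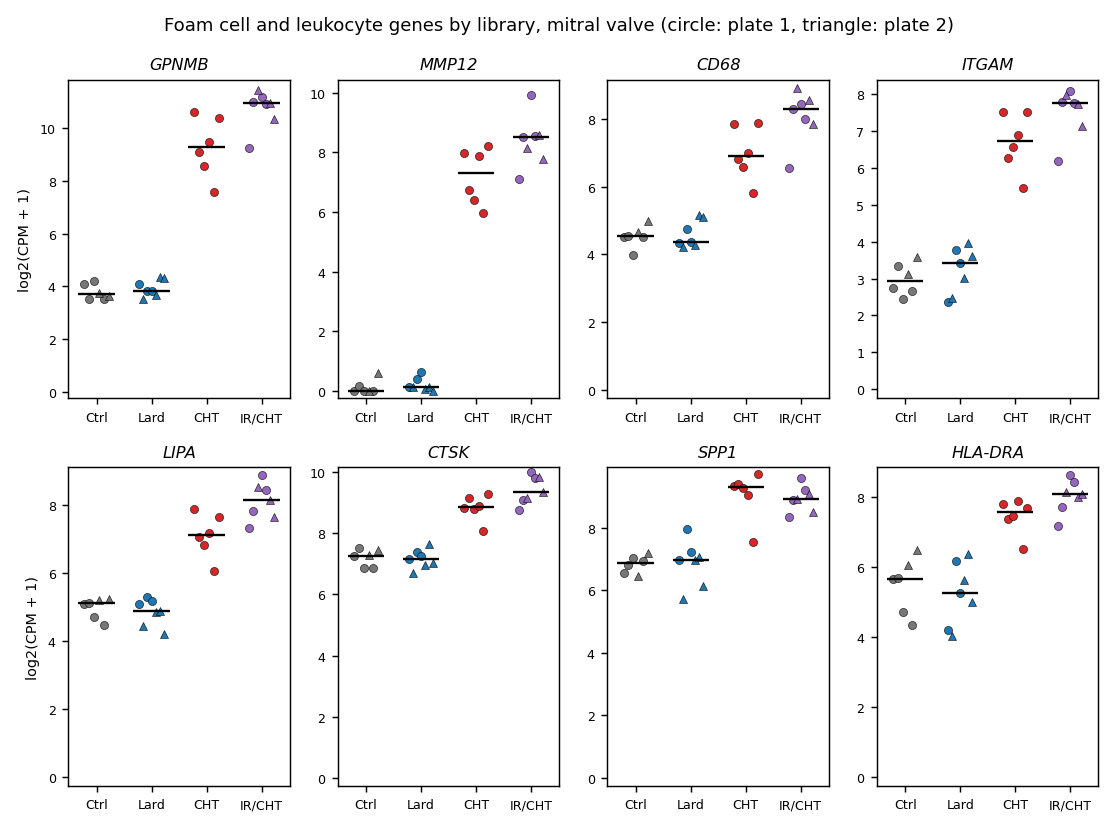
Level of 8 foam cell and leukocyte genes in each mitral valve library, as log2(CPM + 1) on the y axis, by group on the x axis; bars are group medians, circles plate 1 and triangles plate 2. Lard and CHT libraries are apart for all but SPP1, where CHT L245 reaches into the Lard range, and in most of the 8 panels L245 is the lowest CHT point.

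Among 15 cytokine and chemokine genes tested, 4 were lower on Lard and 0 higher: SPP1, the interleukin 1 antagonist IL1RN (-3.11 ± 0.35), the lymphoid chemokine CCL19 (-2.09 ± 0.36) and the interferon-induced chemokine CXCL10 (-4.21). Within plate 1, 2 of the 4 were called, and CCL19 was not (adjusted p = 0.0855). IL1RN lay between 0.37 and 1.53 CPM on Lard and between 3.06 and 9.74 CPM on CHT. CCL2, the monocyte chemoattractant, was at 1.47 to 9.39 CPM on Lard and 3.27 to 18.5 CPM on CHT, and its log2 fold change of -1.18 ± 0.44 did not pass (adjusted p = 0.112). TNF had 29 read pairs over all Lard libraries and also did not pass (-2.03 ± 0.81, adjusted p = 0.144), although it was called with plate in the model (-3.06, adjusted p = 0.0343). IL1B was under the filter on low counts. Of 15 receptors, 6 fell. CCR1, a receptor of monocyte chemokines, had 14 read pairs in the Lard valves and 0.16 to 4.06 CPM on CHT (-4.15 ± 0.64), and the interleukin receptors IL10RA and IL6R changed by -1.48 ± 0.30 and -1.35 ± 0.28. Within plate 1, 3 of the 6 were called.

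In the complement list 3 of 11 genes were lower (27.3%, beside 5.29% of all tested genes). They were the anaphylatoxin receptors C5AR1 (-2.28 ± 0.34) and C3AR1 (-1.99 ± 0.40) and properdin, CFP (-0.99 ± 0.29). The call of CFP was lost when any of 8 single libraries was left out. Within plate 1, 1 of the 3 was called, and neither C3AR1 (adjusted p = 0.0788) nor CFP (adjusted p = 0.164) was. Of 17 interferon response genes, 6 fell, led by OASL (-3.16 ± 0.62), IFIT3 (-1.98 ± 0.39) and the myeloid transcription factor IRF8 (-2.06 ± 0.43). Their Lard and CHT ranges overlapped for each of the 17 genes, and within plate 1 0 of the 17 were called. Without CHT L229 alone 3 were called, and also 3 without the 3 Lard libraries of low endothelial level.

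Cell division genes were lower on Lard in 24 of 32 cases (75%, beside 5.29% of all tested genes) and higher in 0. The condensin subunit NCAPH was at 8.37 to 18.8 CPM on Lard (median 14.1) and 23.7 to 62.8 CPM on CHT (median 39.4), a log2 fold change of -1.63 ± 0.23. The mitotic kinesin KIF11 was at 1.52 to 4.34 CPM on Lard (median 1.89) and 3.38 to 12.9 CPM on CHT (median 10.0; -1.83 ± 0.33), and KIF4A changed by -2.10 ± 0.40. The cyclin-dependent kinase CDK1 (-2.08), the ribonucleotide reductase subunit RRM2 (-1.89), Aurora A kinase AURKA (-1.98) and topoisomerase TOP2A (-1.27) were among the others. Ranges were apart in 6 of the 32. With plate in the model 24 were called, within plate 1 alone NCAPH was the 1 gene called, and without the 3 Lard libraries of low endothelial level 13 were.

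Of 33 collagens and matrix genes tested, 0 were called. The 34 found by symbol summed to 46520 to 55330 CPM on Lard and 49760 to 56550 CPM on CHT. COL1A1, the alpha-1 chain of type I collagen, was at 792 to 3791 CPM on Lard and 1074 to 6240 CPM on CHT (log2 fold change -0.49 ± 0.59, adjusted p = 0.747). TNC, the matricellular protein tenascin C, was at 85.5 to 301 CPM and 172.1 to 283 CPM (-0.24 ± 0.22, adjusted p = 0.647). Of 25 proteases and inhibitors, 7 fell and 1 rose. Beside MMP12, PLAU, the urokinase activator of plasminogen, was at 11.2 to 16.5 CPM on Lard (median 13.2) and 29.1 to 87.4 CPM on CHT (median 58.0), a change of -2.11 ± 0.24. MMP9, gelatinase B, was low and changed by -2.53 ± 0.53, and the urokinase receptor PLAUR and the sheddases ADAM12 and ADAM17 were called as well. The inhibitor TIMP4 was the gene that rose (1.24). Within plate 1 2 of the list were called lower, without the 3 Lard libraries of low endothelial level also 2, and without CHT L266 4. MMP9 was not called within plate 1 (adjusted p = 0.133) or without those 3 Lard libraries (adjusted p = 0.0561).

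Osteogenic genes gave 1 higher and 1 lower call among 23 (8.7%), a share near the 6.05% of all tested genes. MGP, the matrix Gla protein that inhibits calcification, was at 2619 to 5388 CPM on Lard (median 4514) and 1624 to 3386 CPM on CHT (median 2433). The ranges overlapped, with 4 of 7 Lard valves above all CHT valves, and the log2 fold change was 0.70 ± 0.19 (adjusted p = 0.017); within plate 1 it was 0.71 and not called (adjusted p = 0.10). SPP1, described above, was the lower gene. The osteoblast factor RUNX2 (-0.74 ± 0.41, adjusted p = 0.352), the phosphatase ALPL (0.09 ± 0.35, adjusted p = 0.944) and osteocalcin, BGLAP (0.79 ± 0.55, adjusted p = 0.502), did not pass. In the Wnt list 3 of 25 genes rose (12%, beside 0.757% of all tested genes), WNT5A (0.82 ± 0.22), WNT2B (0.65 ± 0.16) and the transcription factor TCF7 (0.88 ± 0.24). Within plate 1, 0 were called. Without CHT L157 1 was called, without Lard L540 1, and without the 3 Lard libraries of low endothelial level 1. The Wnt antagonist DKK1 was low on both diets (1.28 ± 0.61, adjusted p = 0.259). TGF-beta and BMP genes had 0 calls of 29.

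In iron handling 3 of 13 fell (23.1%, beside 5.29% of all tested genes): FTL, the ferritin light chain (-1.46 ± 0.31), the iron transporter SLC11A2 (-1.05 ± 0.18) and the heme oxygenase HMOX1 (-1.46 ± 0.30). FTL has many near-identical copies in mammalian genomes, so its count is uncertain. Within plate 1, 1 of the 3 was called, and neither FTL (adjusted p = 0.0804) nor SLC11A2 (adjusted p = 0.0576) was, while 5 of the list were called without CHT L245. GCLC, the rate-limiting enzyme of glutathione synthesis, was at 10.5 to 20.2 CPM on Lard and 18.9 to 26.4 CPM on CHT (-0.63 ± 0.15, adjusted p = 0.0082). It fell out of the calls within plate 1 (adjusted p = 0.175) and without the 3 Lard libraries of low endothelial level (adjusted p = 0.137). Of 14 folate, sugar and amino acid transporters, 4 fell (28.6%, beside 5.29% of all tested genes). Among them were the proton-coupled folate transporter SLC46A1 (-2.21 ± 0.36), SLC7A7 (-1.99 ± 0.34) and SLC7A8 (-1.36 ± 0.26). Within plate 1, 1 of the 4 was called, and neither SLC7A7 (adjusted p = 0.0752) nor SLC7A8 (adjusted p = 0.127) was. ATF3, a stress-induced transcription factor, was the only call among 14 genes of endoplasmic reticulum stress (-1.66 ± 0.32). That is 7.14% of the list, a share near the 6.05% of all tested genes.

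Several of the genes with the smallest p-values belonged to no list. NYAP2, a neuronal adaptor of phosphoinositide 3-kinase, was at 0.11 to 0.82 CPM on Lard (median 0.31, 47 read pairs in all) and 18.6 to 107 CPM on CHT (median 49.97), a log2 fold change of -7.34 ± 0.50. ANO4, of the anoctamin family of channels and scramblases, was at 0.20 to 1.90 CPM on Lard (median 1.05) and 20 to 114 CPM on CHT (median 58.7; -6.06 ± 0.41). TRPM1, a cation channel of melanocytes and retina, was at 0.05 to 0.94 CPM on Lard and 11.7 to 106 CPM on CHT (-7.08 ± 0.66). All were far apart between the diets. The lysosomal channel MCOLN2 (-4.03 ± 0.37), the cytoskeletal linker GAS2L3 (-2.71 ± 0.25) and the adhesion molecule CADM1 (-1.94 ± 0.19) also fell. On the higher side stood TSC22D3, the glucocorticoid-induced leucine zipper, at 261.7 to 327 CPM on Lard (median 295) and 134 to 173.1 CPM on CHT (median 162; 0.92 ± 0.11), and PIK3R1, the regulatory subunit of phosphoinositide 3-kinase (0.63 ± 0.10). TSC22D3 was called within plate 1, at 0.91, and PIK3R1, at 0.56, was under the fold threshold there.

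Marker lists of other cell types were read beside these groups. Of 15 macrophage markers tested, 7 were lower on Lard and 0 higher. The 16 found by symbol summed to 319 to 979 CPM on Lard and 861 to 1375 CPM on CHT, with 5 of 7 Lard valves below all CHT valves. CD68, a lysosomal glycoprotein of macrophages, was at 17.4 to 34.8 CPM on Lard (median 19.7) and 55.1 to 235.4 CPM on CHT (median 118; -2.56 ± 0.32), and AIF1 changed by -2.22 ± 0.33. CD163, the hemoglobin scavenger receptor of resident macrophages, did not pass, at 14.4 to 69.9 CPM on Lard and 18.0 to 64.2 CPM on CHT (-0.04 ± 0.42, adjusted p = 0.981). Within plate 1, 3 of the list were called lower, without CHT L157 4, without CHT L266 4, and without the 3 Lard libraries of low endothelial level 4. Lard L158 and L191, of those 3, had the lowest macrophage sums, 337.9 and 319.2 CPM. The part of macrophage number in the foam cell, lysosomal and innate groups was not tested.

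Lymphocyte markers were sparse. In the T and NK cell list 5 genes were tested. The 11 members found by symbol summed to 1.36 to 2.59 CPM on Lard and 3.74 to 15.7 CPM on CHT, with GZMK and EOMES at 0. CD28, the costimulatory receptor, had 10 read pairs over the Lard valves and 2.13 to 7.33 CPM on CHT (-5.85 ± 0.63), and CD5 changed by -2.61 ± 0.67. CD5 was not called within plate 1 (adjusted p = 0.2), with plate in the model (adjusted p = 0.0835) or without the 3 Lard libraries of low endothelial level (adjusted p = 0.124). Without CHT L266, 1 of the list was called. Of 5 B and plasma cell markers, CD22 (0.34 to 1.21 CPM on Lard and 5.92 to 46.0 CPM on CHT, -4.78 ± 0.43) and JCHAIN (-2.20 ± 0.50) fell. JCHAIN was not called within plate 1 (adjusted p = 0.166) or without the 3 Lard libraries (adjusted p = 0.0676). Neutrophil markers had 0 calls among 3 tested. The 10 found by symbol summed to 2.35 to 5.82 CPM on Lard and 3.11 to 4.88 CPM on CHT, with MMP8 at 0. Of 3 melanocyte markers tested, MLANA was lower on Lard, at 0.47 to 3.62 CPM against 5.66 to 26.9 CPM on CHT (-3.38 ± 0.50). The 7 found by symbol summed to 40.6 to 60.9 CPM on Lard and 62.4 to 92.6 CPM on CHT.

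Among structural cell types, endothelial markers had 0 calls of 12 and lymphatic endothelial markers 0 of 4. Of 7 smooth muscle markers, 3 were lower on Lard. MYH11, the smooth muscle myosin heavy chain, was at 24.7 to 71.1 CPM on Lard (median 38.9) and 143 to 825 CPM on CHT (median 333), a log2 fold change of -3.34 ± 0.46 (adjusted p = 1.42e-05). ACTG2, gamma-2 smooth muscle actin, was at 1.63 to 3.72 CPM on Lard and 12.9 to 36.6 CPM on CHT (-3.23 ± 0.43), and ACTA2, alpha smooth muscle actin, at 48.3 to 200 CPM and 151.8 to 337 CPM (-1.26 ± 0.32). The 2 actins have nearly the same coding sequence, so that reads could have been shared between them. The desmin gene DES, SMTN, LMOD1 and SYNPO2 did not pass, at log2 fold changes of -1.11, 0.06, 0.04 and 0.27. ACTA2 was not called within plate 1 (adjusted p = 0.371), where MYH11 and ACTG2 were. The 14 heart muscle markers were all below 0 in log2 fold change with a median of -1.64 and 0 calls; without Lard L544, which carried a sum of 2407 CPM, 9 were called lower. Without L544 and CHT L157, the library with the highest sum on CHT, MYH11 and ACTG2 stayed among the 3 smooth muscle calls and 711 DEGs were found, 53 higher and 658 lower.

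**Figure D4:**
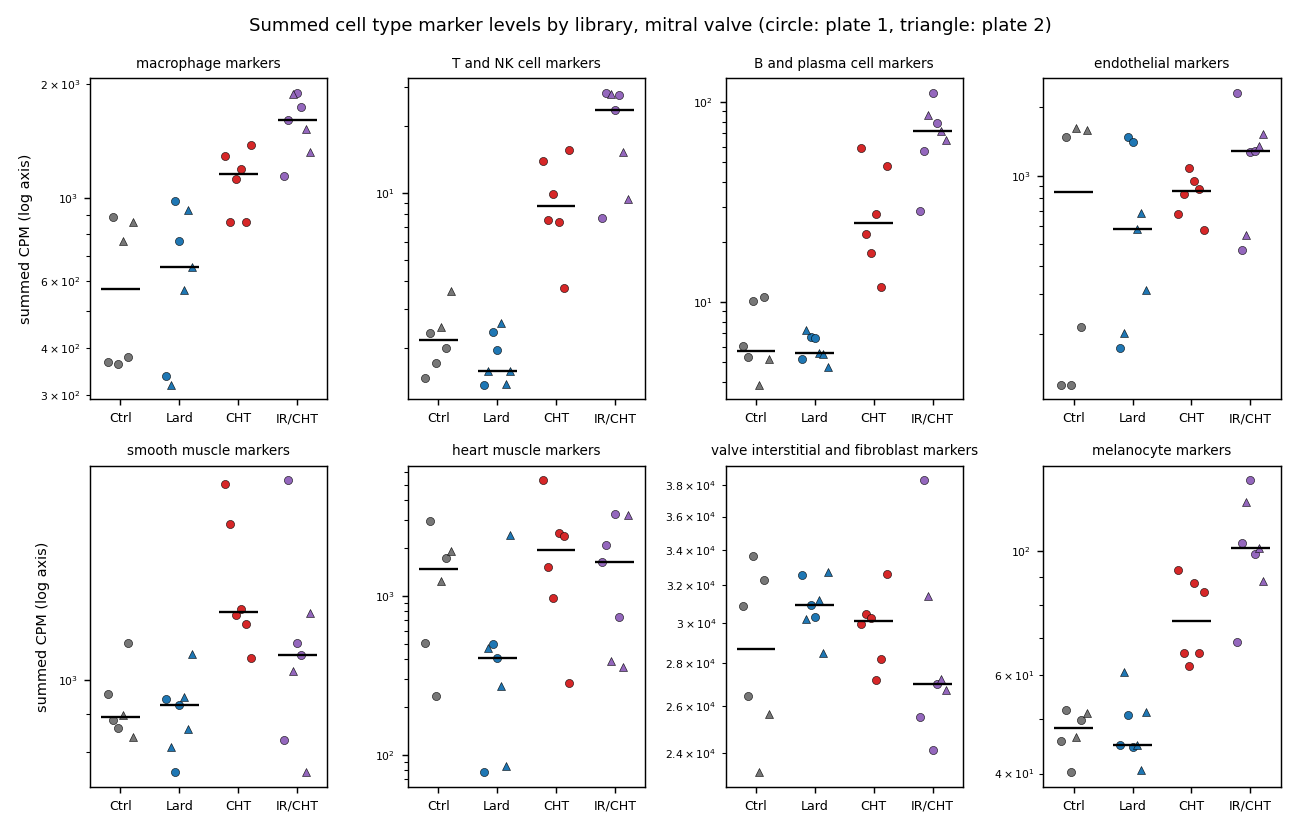
Summed CPM of 8 lists of cell type markers in each mitral valve library, on log y axes, by group on the x axis; bars are group medians, circles plate 1 and triangles plate 2. T and NK cell, B and plasma cell and melanocyte sums are apart between Lard and CHT, macrophage sums overlap with 5 of 7 Lard valves below all CHT valves, and endothelial and heart muscle sums scatter within each group.

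The other left-sided valve, the aortic valve of the same rabbits, was compared by testing the difference between the Lard to CHT log2 fold changes of both valves. Of 16166 genes, 0 (0%) had an adjusted p-value under 0.05 in edgeR, 329 had an unadjusted p-value under 0.05, and DESeq2 called 1. The 329 are fewer than that threshold passes by chance, so 0 calls in edgeR does not show that both valves responded alike. With each rabbit as a block, which pairs both valves of an animal, 857 had an unadjusted p-value under 0.05 and 2 were called, TIAM1 and RRM2, named after their values were seen. The aortic valve by itself had 1506 genes called between Lard and CHT, 170 higher and 1336 lower. GPNMB changed by -5.77 in the mitral and -6.66 in the aortic valve, a difference of 0.89 ± 0.49, and SQLE by 2.07 and 1.79, a difference of 0.28 ± 0.32. KLB, a co-receptor of fibroblast growth factors, was nearest to a call and is named after its values were seen. It changed by -0.70 in the mitral and -7.58 in the aortic valve (difference 6.88 ± 1.31, adjusted p = 0.0546) and is the gene DESeq2 called.

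Against the tricuspid valve, on the right side of the heart, 1.57% of 15890 genes differed in their response, 8 of them with a more positive Lard to CHT change in the mitral valve and all others with a more negative one. The tricuspid valve by itself had 18 genes called, 11 higher and 7 lower on Lard.

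SQLE, MSMO1, CYP51A1, HMGCS1 and INSIG1 were higher on Lard in both valves. SQLE changed by 2.09 in the mitral and 1.97 in the tricuspid valve (adjusted p = 2.35e-07 in the tricuspid valve), a difference of 0.12 ± 0.31, and MSMO1 by 1.74 and 1.66, a difference of 0.08 ± 0.33. HMGCS1 differed by 0.32 ± 0.29 and INSIG1 by 0.09 ± 0.36, and none of these passed the test. CYP51A1 had the smallest p-value among them, with a difference of 0.48 ± 0.22 (adjusted p = 0.432). FDFT1 changed by 1.41 in the mitral valve and by 0.93 in the tricuspid valve, where it did not pass (adjusted p = 0.098). In the tricuspid valve SQLE was at 12.5 to 37.9 CPM on Lard and 3.46 to 6.95 CPM on CHT, again without overlap. ABCA1 fell in both valves, by 3.63 and 2.51 on the log2 scale, and its difference of -1.13 ± 0.31 passed (adjusted p = 0.0427). For NR1H3 the difference was -0.55 ± 0.35 (adjusted p = 0.73).

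Of the foam cell list 7 of 13 measured genes differed between the valves, of the lysosomal list 10 of 24, of the innate list 7 of 17, of cell division 8 of 32 and of the macrophage markers 2 of 16. Over all tested genes the share was 1.57%. GPNMB was at 4.64 to 10.6 CPM on Lard and 9.44 to 63.6 CPM on CHT in the tricuspid valve, where its log2 fold change was -1.46 against -5.76 in the mitral valve, a difference of -4.30 ± 0.59 (adjusted p = 6.92e-06). CD68 changed by -0.35 in the tricuspid valve (difference -2.23 ± 0.37), ITGAM by -0.73 (difference -2.96 ± 0.43) and SPP1 by -0.11 (difference -2.09 ± 0.50). MMP12 did not pass this test, with a difference of -6.30 ± 2.01 (adjusted p = 0.113) at 0 to 2.18 CPM in the tricuspid CHT libraries. The smallest p-values belonged to ANO4 (difference -6.00 ± 0.59), GAS2L3 (-2.72 ± 0.30), NYAP2 (-6.78 ± 0.85), MYH11 (-4.53 ± 0.58) and PLAU (-2.20 ± 0.30). In the tricuspid valve MYH11 was at 33.1 to 156.9 CPM on Lard and 21.5 to 42.2 CPM on CHT, a log2 fold change of 1.16 with an adjusted p of 0.739, and PLAU was at 15.6 to 25.4 CPM and 13.1 to 22.4 CPM.

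The 8 genes with a more positive change in the mitral valve included AHI1 (difference 0.68 ± 0.19), CACHD1 (0.75 ± 0.20), RARRES2, which encodes the chemoattractant chemerin (0.73 ± 0.19), and TSPYL2 (0.69 ± 0.18). AHI1, CACHD1 and TSPYL2 were 0.52 to 0.55 higher on Lard in the mitral valve on the log2 scale, under the fold threshold, and RARRES2 changed by 0.18 there and by -0.55 in the tricuspid valve. Within plate 1, 76 genes (0.473%) differed between the valves, 68 of which also differed over both plates, and with each rabbit as a block 2.36% did, of which 60.8% also differed without the block.

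**Figure D5:**
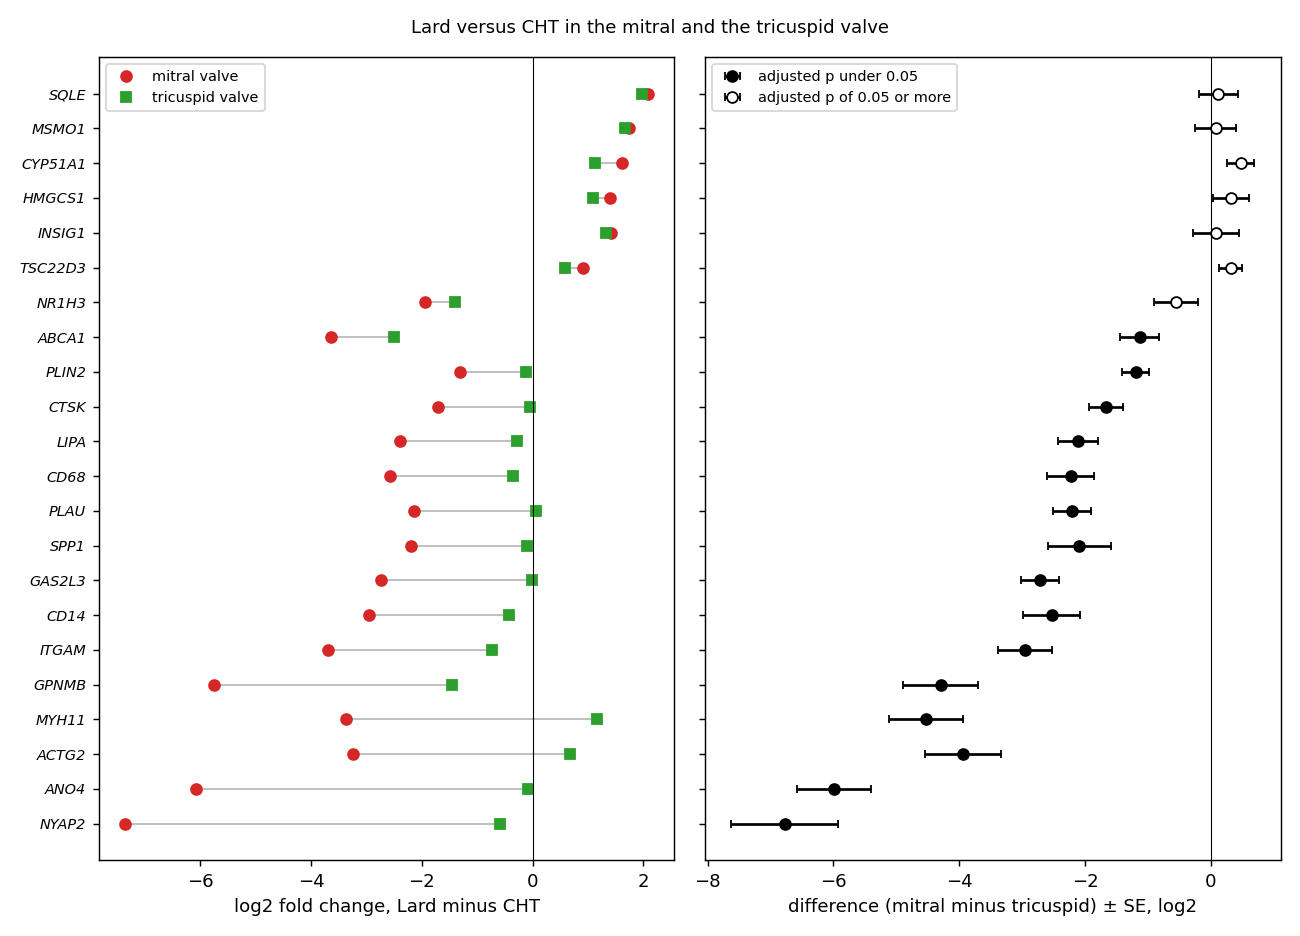
Lard minus CHT log2 fold change of 22 named genes in the mitral (red circles) and tricuspid valve (green squares) on the left, and the difference of both with its SE on the right, filled where the adjusted p-value was under 0.05. The sterol synthesis genes, INSIG1 and TSC22D3 lie close together in both valves with open symbols, while GPNMB, ITGAM, MYH11, ANO4 and NYAP2 are far apart with differences between -6.78 and -2.96.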

How the data were processed

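Total RNA of the mitral valve was sequenced after library preparation with a stranded total RNA kit, and the mitral valve had 26 libraries in 4 groups. The authors ran the nf-core/rnaseq pipeline, with trimming, mapping to OryCun2.0 and counting on Ensembl genes; per the submitters' processing notes, bcl2fastq 2.20 was used. The deposited values are raw counts per gene, in 1 table for each of 2 plates, with 29587 genes. Names were taken from the tables, which give 14716 genes a symbol, and lists were matched on the 13065 symbols that belong to a single gene ID. Coordinates and sequences were not used here.

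Genes were filtered with filterByExpr, libraries were scaled by TMM, and the 4 groups entered a robust quasi-likelihood fit in R 4.3.3 with edgeR 4.0.16, without covariates. DEGs had a Benjamini-Hochberg adjusted p under 0.05 and a fold change over 1.5. A positive log2 fold change is higher on Lard, and its SE was taken from the F statistic. CPM are on TMM-scaled library sizes. Differences between valves were tested as interactions in a model of both valves, at an adjusted p under 0.05 alone. In the mitral and aortic valve, libraries of the same rabbit had a median correlation of 0.46 in their deviations from the group means and those of other rabbits on the same diet -0.0953, with 26 of 26 rabbits over 0.1. For the tricuspid valve these were 0.299 and -0.0294, with 19 of 26 rabbits over 0.1. Rabbits were identified by the number that opens each column name. No 2 libraries of a group agreed within sampling noise.

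Counting alone gives an SD of 26.9% of the level for a gene at 1 CPM and of 8.52% at 10 CPM in the shallowest library. Genes named are the DEGs with a symbol that had the smallest p-values, 12 in each direction, the 3 DEGs of smallest p in each list, a fixed set of 32 genes of sterol, macrophage, calcification and matrix biology, and up to 5 genes per direction of each interaction, 103 in all, some of which are not reported here. Other list members that were called are given by their fold change or name only. Of the fixed set, IL6, CPT1A, SCD, FASN and MKI67 were not found by symbol. The libraries, lists and genes were chosen with earlier results of these data known. Alternatives were DESeq2 1.42.0, its size factors in edgeR, no filter, only the Lard and CHT libraries, plate as a covariate, plate 1 alone, no fold threshold, each rabbit as a block, and leaving out each library. Figures were drawn with matplotlib 3.10.9.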

Additional observations from a re-analysis of the deposited data

Results flagged for a closer look

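In 230 groups of values, 7 Lard or 6 CHT libraries each, 23 held a library set apart from the rest by Dixon's criterion. Chance flags about 1 group in 20 where values are normally distributed. The values were not on a log scale, so this rate need not hold for them. Lard L544 stood high in VLDLR (47.6 CPM), CD34 (386.9 CPM), IRF8 (11.0 CPM) and in the sums of the heart muscle (2407 CPM) and cartilage-like markers (684 CPM). Lard L233 stood high in CCL2 (9.39 CPM), CD28 (0.33 CPM) and NYAP2 (0.82 CPM), Lard L540 in CFP (4.02 CPM), TNF (0.90 CPM) and the neutrophil sum (5.82 CPM), and Lard L158 in HMGCS1 (44.7 CPM), TRPM1 (0.94 CPM) and the nerve and Schwann cell sum (916 CPM). Lard L270 was high in ACSS2 (52.0 CPM) and Lard L191 in the red blood cell sum (55.2 CPM). Among the CHT valves, L266 was high in ALPL (5.91 CPM), ATP6V0D2 (54.5 CPM) and in its total of 42151854 read pairs, L229 in CCL19 (4.26 CPM) and IFIT3 (92.0 CPM), and L157 in TRPM1 (106.0 CPM) and VLDLR (155.4 CPM). The cause was not tested for any of these libraries.

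The Lard to CHT response differed between the mitral and the tricuspid valve in 1.57% of the tested genes, by the test of the interaction. Beside the genes described above, the log2 difference, mitral minus tricuspid, was as follows among named genes. In lipid, lysosomal, uncoupling protein and transporter genes it was -1.13 for ABCA1, -1.19 for PLIN2, -2.11 for LIPA, -1.66 for CTSK, -2.96 for CTSS, -5.13 for ATP6V0D2, -3.58 for MCOLN2, -2.06 for UCP2, -1.20 for SLC11A2, -1.76 for SLC7A7 and -1.36 for SLC7A8. Leukocyte genes had -4.30 for GPNMB, -2.23 for CD68, -1.74 for AIF1, -2.53 for CD14, -2.55 for C5AR1, -1.64 for CYBB, -2.29 for HLA-DMA, -2.34 for IL1RN, -4.69 for ITGAL, -2.96 for ITGAM, -3.13 for CD22 and -2.09 for SPP1. Cell division and smooth muscle genes had -1.83 for KIF11, -2.10 for KIF4A, -1.87 for NCAPH, -4.53 for MYH11 and -3.93 for ACTG2. The remaining genes were ANO4 (-6.00), NYAP2 (-6.78), GAS2L3 (-2.72), CADM1 (-1.53), MLANA (-3.67) and PLAU (-2.20), and on the positive side AHI1 (0.68), CACHD1 (0.75), RARRES2 (0.73) and TSPYL2 (0.69).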

How the results depend on the processing

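The 927 DEGs kept their direction wherever they were tested, in every alternative run. DESeq2 called 1114 genes, with 1.14% of the tested genes higher on Lard against 0.757%, and shared 926 with the 927. Plate as a covariate left 58 higher genes (0.379%), which moved the share of higher calls from 12.5% to 7.38%, and no fold threshold gave 218 (1.42%). Plate 1 alone called 1.76% of the tested genes, 0.115% higher and 1.64% lower, and 29 of the 88 named calls were lost there. Without Lard L158, L191 and L544, an alternative chosen after the data were seen, 540 were called (3.46%), 39 higher (0.25%) and 501 lower (3.21%). Without Lard L544 and CHT L157, also chosen afterwards, 53 were higher (0.343%). With single libraries left out, the count ran from 708 (without CHT L266) to 1138 (without CHT L245), or 4.57% to 7.35% of the tested genes, with 0.394% to 1.18% higher and 4.18% to 6.17% lower. The higher share was 0.478% without CHT L187, 0.497% without Lard L191, 0.394% without CHT L266 and 1.18% without CHT L245, and 11 of the 88 named calls were lost in at least 1 of them, CFP, THRSP, UCP3, MGP, TCF7 and WNT5A in 3 or more. Fewer libraries remain in several of these settings, and the cause of the changes was otherwise not tested.

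The tricuspid interaction was called in 2.48% of the tested genes in DESeq2, 0.473% within plate 1, 2.36% with each rabbit as a block, and 0.985% to 2.26% with single libraries left out, lowest without mitral CHT L266 and highest without mitral CHT L245. The aortic interaction gave 1 gene in DESeq2, 2 with each rabbit as a block, TIAM1 and RRM2, named after their values were seen, and 0 to 1 with single libraries left out, KLB in each case. Lard and CHT libraries share no replicate number. No paired analysis was possible because, within the mitral valve, each library came from a different rabbit; between valves, the fit with each rabbit as a block is the paired one.

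Genes near 0 changed sign. CD163 was at 0.062 within plate 1 and 0.39 without the 3 Lard libraries, and between -0.28 and 0.17 with single libraries left out. ALPL was at -0.14 within plate 1, -0.051 without L544 and L157, and between -0.065 and 0.53 with single libraries left out. The median of the B and plasma cell list was 0.069 without the filter, which adds genes of few counts.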
